A study of Mus musculus with 6 samples.

Results

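Processed pseudogenes counted in sorted mouse thymocytes are described here. The authors' normalized table labels 1027 of its 16448 rows as processed pseudogenes. The 115 members are those rows whose mean normalized count over all 6 libraries was at least 30, with Gm33707 left out by the rule. The other 911 rows of that kind lay under 30. The members were thus chosen by their mean level over both groups, so levels are given as a description. Of them, 8 reached 30 although 1 group's mean was lower, in 4 cases the KO mean and in 4 the WT mean. Just inside the threshold were Gm21596 (30.5), Gm17970 (31.1) and Gm12276 (31.2), and just outside it were Gm10343 (29.9), Gm3788 (29.9) and Gm6136 (29.4).

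The RNA came from sorted CD4+CD8+ (double-positive) thymocytes, which are developing T cells that rearrange the gene of the receptor alpha chain. The KO libraries (n = 3) came from mice carrying floxed Mettl14 alleles and a CD4-Cre transgene, and the WT libraries (n = 3) from littermate controls. The CD4 promoter drives the recombinase in cells that express CD4, and Mettl14 encodes a subunit of the complex that writes N6-methyladenosine (m6A) on RNA. Per the labels, all 6 samples are C57BL/6. Age is not given in the labels. Nothing in them says that each library is a separate animal, so the spread behind every p-value is that of libraries and may in part be technical.

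A processed pseudogene arises when a spliced messenger RNA is copied back into DNA and inserted elsewhere in the genome. Such a copy has no introns and usually no promoter of its own, and highly transcribed genes, above all those for ribosomal proteins, have left many. The gene it was copied from is called its parent here. A recent copy still carries nearly the parent's sequence, so a short read from the parent can also match the copy.

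Between 29500254 and 33377056 counts were assigned to genes per library, and 22.6% to 23.9% of all counted reads had several alignments and were given to no gene. Mettl14 was at 42.2, 40.3 and 36.4 CPM in the KO libraries and 52.0, 58.8 and 55.8 CPM in the WT libraries. CPM are counts relative to a fixed library total, scaled here by the TMM factors of edgeR. The groups of Mettl14 did not overlap, at a log2 fold change of -0.49 (SE 0.09, edgeR p 0.000496, adjusted p 0.289 over 13039 genes). All 12 markers of double-positive thymocytes were measured, and together they held 20722 to 21181 CPM in KO and 19566 to 21289 CPM in WT. B cell markers (5 of 5 measured) summed to 1.03 to 6.77 CPM in KO and 0.854 to 1.36 CPM in WT. Myeloid markers (5 of 5) summed to 62.2 to 75.8 CPM in KO and 55.2 to 60.5 CPM in WT. Most of this was Cst3, at 50.9 to 60.1 CPM over all libraries. Cd74 was at 2.42, 18.7 and 10.5 CPM in KO and 2.69, 5.14 and 3.52 CPM in WT. Lyz2, Itgax and Csf1r were each at most 4.27 CPM. Foxn1 of thymic epithelium was at 0 throughout. Stromal markers (4 of 4) summed to 149 to 160 CPM in KO and 153 to 179 CPM in WT, nearly all of it Pecam1. Red cell markers (3 of 3) summed to at most 0.363 CPM in any library, and NK and gamma-delta markers (3 of 4 measured) to at most 1.73 CPM. In bulk RNA, fewer cells of a type and less RNA per cell cannot be told apart. The part of these other cells in the values below was not tested.

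For 114 of the 115 members a transcript of a protein-coding gene in GENCODE M21 matched, from 105 different genes, and 8 of these were the parent of more than 1 member. Ptma, encoding prothymosin alpha, had 3 copies among them, while Eef1a1, Hmgb1, Rpl11, Rpl34, Rps10 and Rps13 were among those with 2. Copies of 1 parent share sequence and are not independent of each other. The median identity to the parent was 98.96%, and 94 members were at least 95% identical over at least 80% of their length. A further measure was the share of 50-base windows of a copy's M21 transcript found in no other gene's transcripts, whose median was 33.2%. At 11 members the M21 transcript of the copy equalled its parent over its whole length, and no such window existed. These were Tpt1-ps3, Gm9843, Rps16-ps2, Gm14303, Rpl10a-ps1, Gm8186, Rpl31-ps8, Rpl28-ps1, Gm15536, Gm9762 and Dynlt1-ps1. The authors' models of Gm9843 and Gm8186 are 504 and 386 bases long, but their M21 transcripts cover 402 and 231. The remaining bases of those models were not compared. The copies were 114 to 3338 bases long, with a median of 642.

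Most members (75) overlapped no other annotated gene. Another 31 lay in an intron, 19 on the host's strand and 12 on the opposite one, and 9 overlapped an exon, 8 of them on the opposite strand. The strand setting of the counting is not given in the sources used here, so reads of a host gene or an antisense partner may be included in those 9. Reads of unspliced host RNA may also be included in the 31 intronic members, Rps3a3 and Gm15920 among them. The part of such reads was not tested. By what the parent encodes, 38 members were copies of ribosomal protein genes, 21 of genes for translation and RNA binding, 11 of chromatin and HMG genes, 6 of cytoskeletal, 5 of mitochondrial, 3 of chaperone and 1 of glycolysis genes. Another 29 had other parents and 1, Gm9974, had no match. GENCODE M21 lists Gm10073 as protein coding and the others as processed pseudogenes, and RefSeq lists Gm12250 and Gm10509 as protein coding.

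The sequences below show how little separates a copy from its parent at the 6 members whose libraries differed most and whose parent match was near-identical. Each line gives 81 bases of the transcript (GENCODE M21, mm10) within the parent's coding part, and capitals mark the bases that differ. Substitutions are written as parent base, position from 1 at the left of the printed stretch, and copy base. Atp6v0c-ps2 (chr6:37806086-37806550, plus strand) differed from Atp6v0c (chr17:24163866-24169702, minus strand) at 1 base over its 465 bases, T41C here.
Atp6v0c-ps2: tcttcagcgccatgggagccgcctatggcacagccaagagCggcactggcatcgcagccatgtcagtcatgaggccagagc
Atp6v0c: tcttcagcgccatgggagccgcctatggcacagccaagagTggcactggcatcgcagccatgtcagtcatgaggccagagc
Gm9825 (chr6:7981829-7983430, minus strand) differed from Rnps1 (chr17:24414675-24425895, plus strand) at 5 of 843 bases, here T30C and T51C. The authors' model of Gm9825 is 1602 bases long, and the M21 transcript used for the match covers 843 of them.
Gm9825: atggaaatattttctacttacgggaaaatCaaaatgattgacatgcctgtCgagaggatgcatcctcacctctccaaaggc
Rnps1: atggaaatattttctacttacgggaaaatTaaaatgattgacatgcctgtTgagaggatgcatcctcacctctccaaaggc
Gm13443 (chr2:35340409-35340963, plus strand) differed from Glo1 (chr17:30592866-30612659, minus strand) at 3 of 555 bases, here G8A and T74C.
Gm13443: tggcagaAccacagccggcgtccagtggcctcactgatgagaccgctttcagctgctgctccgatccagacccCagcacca
Glo1: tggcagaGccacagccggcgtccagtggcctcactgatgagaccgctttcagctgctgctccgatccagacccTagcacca
Gm14292 (chr2:179177425-179177880, plus strand) differed from Wtap (chr17:12966796-12992546, minus strand) at 3 of 456 bases, here A29G and C53T.
Gm14292: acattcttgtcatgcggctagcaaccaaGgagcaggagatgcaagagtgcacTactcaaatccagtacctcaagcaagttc
Wtap: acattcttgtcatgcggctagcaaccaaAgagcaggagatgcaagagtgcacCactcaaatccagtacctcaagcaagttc
Rps3a3 (chr13:108670603-108671397, plus strand, in an intron of Pde4d) differed from Rps3a1 (chr3:86137940-86142702, minus strand) at 9 of 795 bases, here T19C and T63C.
Rps3a3: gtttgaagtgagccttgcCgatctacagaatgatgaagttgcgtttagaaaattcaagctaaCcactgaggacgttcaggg
Rps3a1: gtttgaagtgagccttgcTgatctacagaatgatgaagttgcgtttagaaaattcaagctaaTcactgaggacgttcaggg
Gm15920 (chr5:130188395-130188796, plus strand, in an intron of Rabgef1) differed from Ndufa12 (chr10:94198955-94221443, plus strand) at 2 of 402 bases, here A41G.
Gm15920: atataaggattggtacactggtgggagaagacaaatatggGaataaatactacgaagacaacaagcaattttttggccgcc
Ndufa12: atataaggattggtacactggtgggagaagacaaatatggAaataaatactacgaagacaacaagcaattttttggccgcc

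The comparison of KO with WT asked which copies differed in thymocytes with floxed Mettl14 and CD4-Cre. No member was called higher and 2 were called lower, Atp6v0c-ps2 and Gm9825, by edgeR's quasi-likelihood test (adjusted p under 0.05 over all 13039 genes tested). Both were among the 4 members whose KO mean was under 30, at 4.45 and 25.6 normalized counts, against 256 and 448 in WT. They thus reached the threshold through the WT libraries, and the number called among members is not independent of that choice. All 115 members passed the filter on low counts. Over all tested genes, 0.0383% were called, 0.00767% higher and 0.0307% lower, which is 5 genes in all. An unadjusted p under 0.05 was found for 5 members, against 6.72% of all tested genes. The 3 KO libraries lay above the 3 WT libraries at 7 members and below them at 4, against 6.59% and 5.97% of all tested genes (12.6% in either direction). The median log2 fold change of the members was 0.03, that of all tested genes -0.0040, and 107 members were within 1.5-fold. By DESeq2 another member, Gm12250, was called as well (adjusted p 0.0400), against 0.675% of the genes it tested. The authors' deposited table, from a fit named as paired, calls the same 3 members, against 0.762% of its genes.

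**Figure D1:**
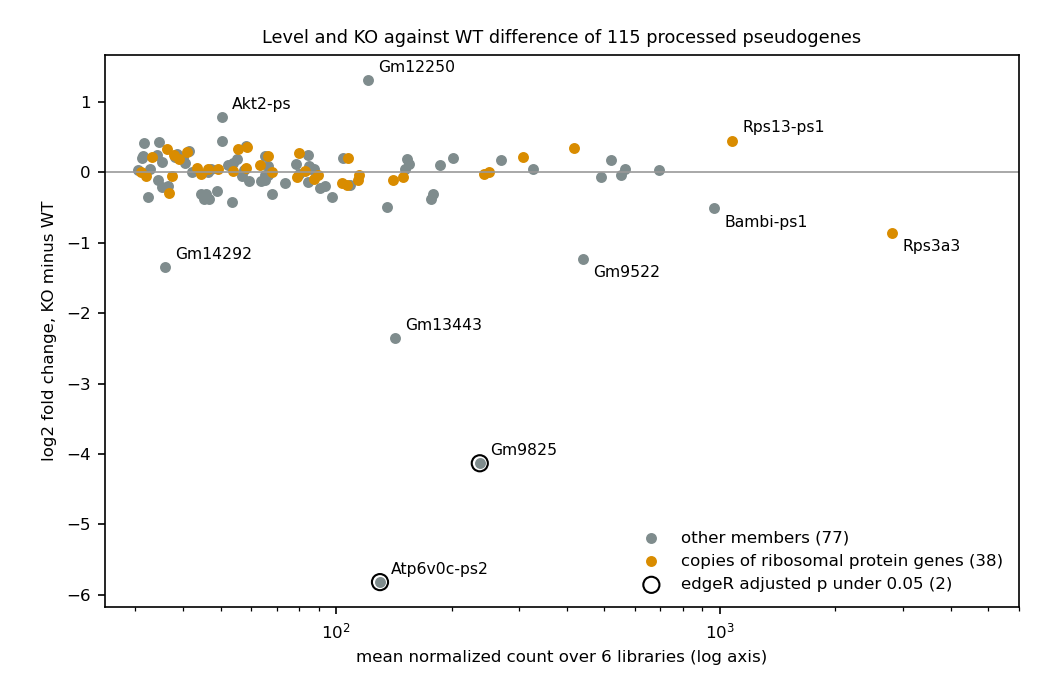
Each point is 1 of 115 members, with its mean normalized count over 6 libraries on a log axis and its log2 fold change, KO minus WT, from edgeR. Most points lie near 0, the circled Atp6v0c-ps2 and Gm9825 lie lowest at -5.82 and -4.13, and the copies of ribosomal protein genes (orange) lie between -0.86 and 0.45.

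Atp6v0c-ps2, a copy of the gene for the proteolipid subunit of the vacuolar proton pump, was nearly without counts in KO. Its normalized counts were 3.12, 6.34 and 3.88 in the KO libraries and 257, 237 and 274 in the WT libraries. These KO values rest on 3, 6 and 4 raw counts. The log2 fold change was -5.82 (SE 0.28, adjusted p 0.000176 by edgeR), and it lay between -6.14 and -5.63 when any 1 library was left out. The parent Atp6v0c was at 48.6, 44.4 and 49.7 CPM in KO and 40.5, 33.9 and 34.6 CPM in WT. All 3 KO libraries of the parent were above all 3 WT libraries, but its log2 fold change of 0.39 (SE 0.09) was not called (adjusted p 0.488 by edgeR). The pair's summed counts were 48.7, 44.6 and 49.8 CPM in KO against 48.8, 41.5 and 43.3 CPM in WT. The summed counts differed by a log2 fold change of 0.10 (SE 0.09, adjusted p 0.840 by edgeR), and the groups overlapped. The copy held 0.204% to 0.455% of the summed counts in KO and 17.02% to 20.2% in WT.

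Gm9825 showed the same arrangement. It is a copy of Rnps1, which encodes an RNA-binding protein of the exon junction complex. Normalized counts were 29.1, 26.4 and 21.3 in the KO libraries and 419, 526 and 400 in the WT libraries, so the groups lay far apart. The log2 fold change was -4.13 (SE 0.21, adjusted p 0.000176 by edgeR), and it was called with any 1 library left out. Rnps1 itself was at 59.0, 56.0 and 64.1 CPM in KO and 39.9, 49.5 and 46.2 CPM in WT. That difference, a log2 fold change of 0.40 (SE 0.10), was not called (adjusted p 0.513 by edgeR). Added together, copy and parent gave 59.9, 56.8 and 64.7 CPM in KO and 53.4, 66.4 and 58.9 CPM in WT, with a log2 fold change of 0.02 (SE 0.10). The copy's part of this sum was 1.05% to 1.55% in KO and 21.7% to 25.4% in WT. At both pairs the summed counts overlapped between the groups. The part of read placement between copy and parent in these values was not tested.

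**Figure D2:**
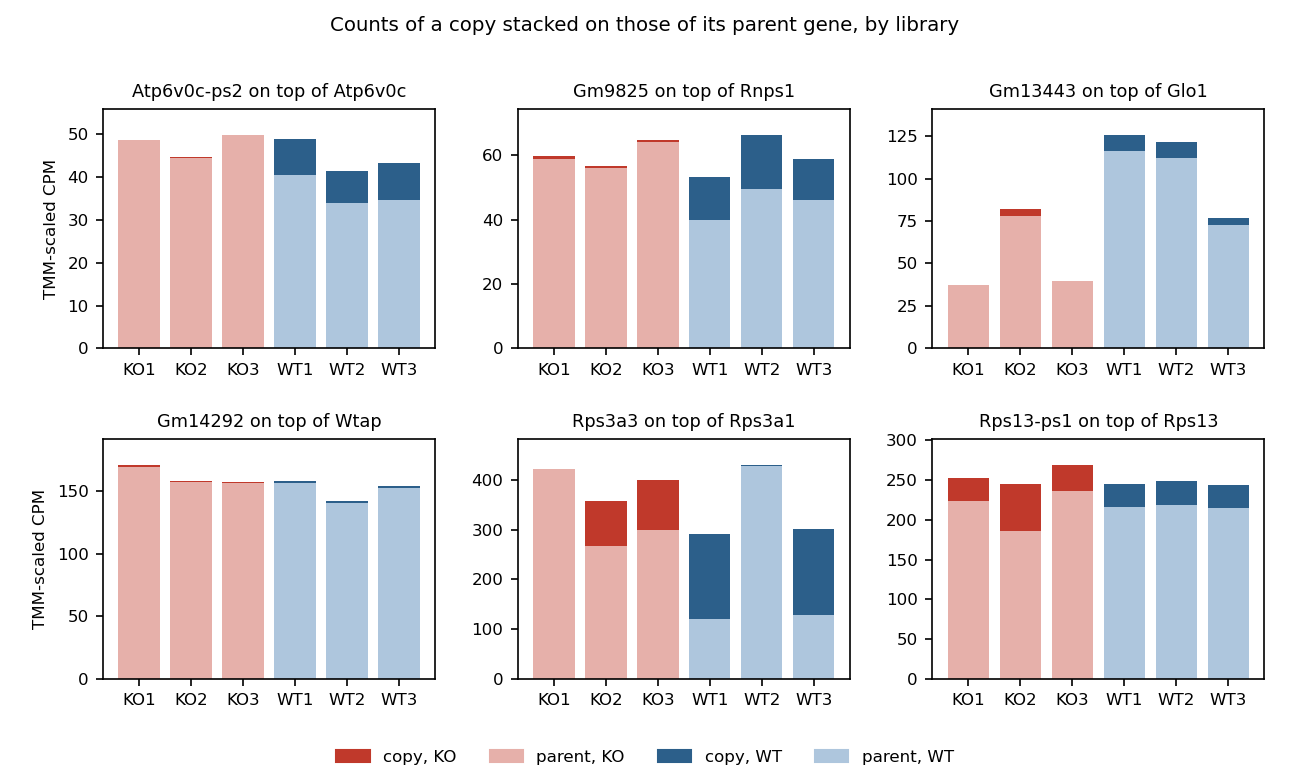
Bars start at 0 and give TMM-scaled CPM of the parent gene (pale) with its copy stacked on top (dark) in each of 3 KO (red) and 3 WT (blue) libraries, for 6 pairs. The dark part is nearly absent in KO for Atp6v0c-ps2 and Gm9825, and it varies among libraries of the same group for Gm13443, Rps3a3 and Rps13-ps1.

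The parents Atp6v0c and Rnps1 are both on chromosome 17, although both copies are on chromosome 6. In all, 12 members had a parent on chromosome 17, and 4 of these had a highest library at least 10 times the lowest. Of the 103 other members, 3 had such a range and 0 were called by edgeR (3 with an unadjusted p under 0.05, and 1, Gm12250, called by DESeq2). The chromosome was singled out after the values were seen, so these counts carry no test. Besides the 2 called copies, the 4 included Gm13443 and Gm14292.

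Gm13443 is a copy of Glo1, the gene for glyoxalase 1, which removes methylglyoxal. It had 4.16, 135 and 1.94 normalized counts in the KO libraries against 298, 285 and 130 in the WT libraries. KO replicates 1 and 3 rest on 4 and 2 raw counts, while KO replicate 2 was just above WT replicate 3. The log2 fold change of -2.35 (SE 1.10) was not called (adjusted p 0.750 by edgeR). Without KO replicate 2 it was -6.25, with an edgeR adjusted p of 0.0262, and over the other leave-one-out fits the adjusted p was at least 0.421. Glo1 was lower in the same libraries as the copy, with 37.4, 77.9 and 39.6 CPM in KO against 116, 112 and 72.6 CPM in WT. Its log2 fold change was -0.96 (SE 0.30, adjusted p 0.656 by edgeR), and copy and parent added gave -1.02 (SE 0.32, adjusted p 0.647 by edgeR).

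Gm14292 is a copy of Wtap, which encodes a regulatory subunit of the same m6A writer complex that holds Mettl14. Its normalized counts were 47.8, 7.40 and 5.82 in KO and 51.6, 59.4 and 42.8 in WT. KO replicate 1 lay within the WT range and the other two KO libraries far under it. The log2 fold change of -1.35 (SE 0.69) was not called (adjusted p 0.763 by edgeR). It was -2.94 without KO replicate 1, -0.95 without KO replicate 2 and -0.89 without KO replicate 3, and with any 1 library left out the edgeR adjusted p was at least 0.283. Wtap was at 169, 158 and 157 CPM in KO and 156, 141 and 153 CPM in WT, a log2 fold change of 0.11 (SE 0.07, adjusted p 0.791 by edgeR). The copy held at most 1.34% of the summed counts in any library. The other 8 copies with a parent on chromosome 17, among them Mpc1-ps, Rps10-ps1, Rps10-ps2, Rpl10a-ps1 and the copies Gm14276 of Rps2 and Gm13071 of Rps18, had a highest library under 2 times the lowest.

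A highest library at least 10 times the lowest was found at 7 of 115 members, against 75 of 11343 other rows with a mean of at least 30, which is 0.661%. A range of at least 2-fold was found at 30 members, against 12.1% of those rows. The other rows were not matched to the members by level, and the members' median mean was 65.3 normalized counts. The part of level in these shares was not tested. The remaining 3 of the 7 were Rps3a3, Gm15920 and Gm9522. At Rps3a3 and Gm15920 the low libraries were 1 of each group, and at Gm9522 a single library, KO replicate 3, was far below the others.

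**Figure D3:**
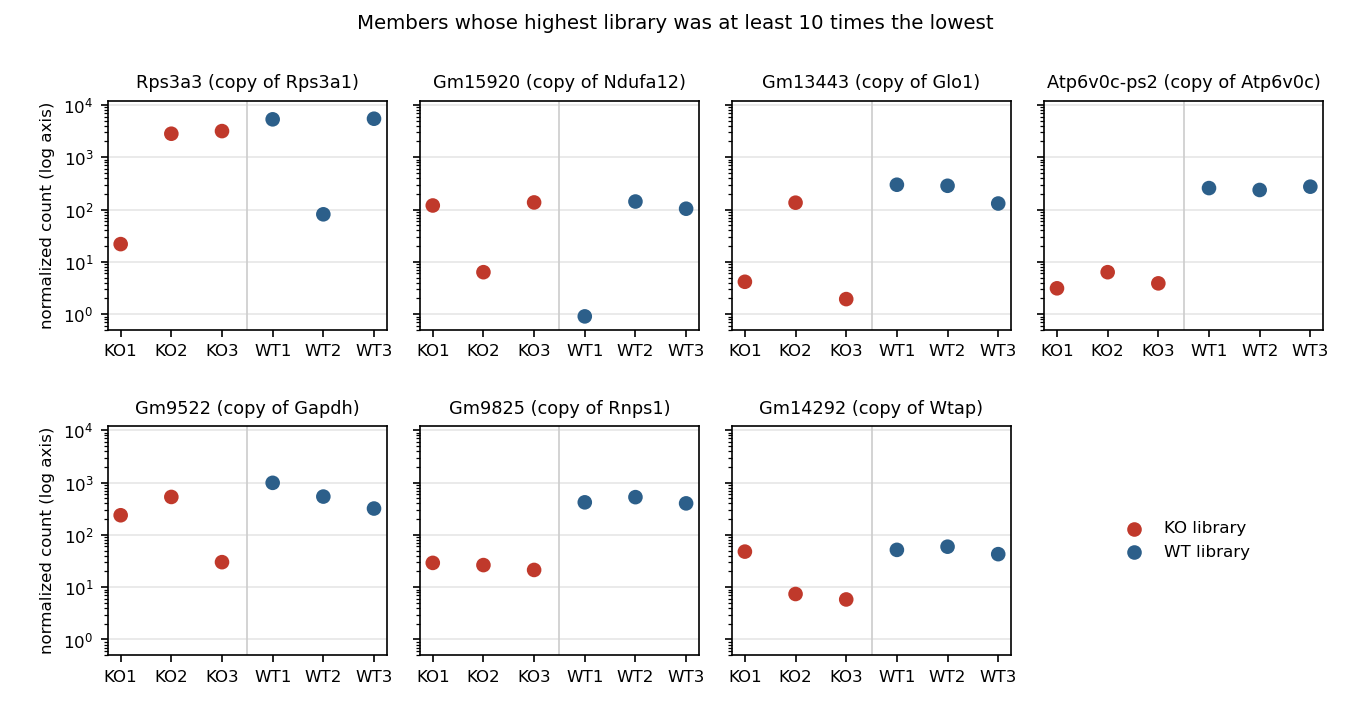
Normalized counts (log axis) of the 7 members whose highest library was at least 10 times the lowest, in 3 KO (red, left) and 3 WT (blue, right) libraries. Atp6v0c-ps2 and Gm9825 separate by group, whereas Rps3a3 is low in KO1 (21.8) and WT2 (81.1) and Gm15920 is low in KO2 (6.34) and WT1 (0.906).

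Rps3a3 had the highest mean of all members, 2806 normalized counts. The parent Rps3a1 encodes a protein of the small ribosomal subunit. Rps3a3 had 21.8, 2815 and 3162 normalized counts in the KO libraries and 5308, 81.1 and 5450 in the WT libraries. One library of each group was low, and the 2 other KO libraries were below the 2 other WT libraries. The log2 fold change of -0.86 had an SE of 1.43 (adjusted p 0.919 by edgeR), and it lay between -1.43 (without WT replicate 2) and -0.27 (without KO replicate 1) with 1 library left out. Rps3a1 ran the other way, with 422, 268 and 300 CPM in KO and 120, 427 and 128 CPM in WT. The copy took 0.165%, 25.2% and 25.2% of the summed counts in KO and 58.8%, 0.605% and 57.7% in WT. These shares fell near 3 values, close to 0, about 25.2% and about 57.7% to 58.8%. The sum of both was steadier, at 423, 358 and 401 CPM in KO and 291, 430 and 302 CPM in WT (log2 fold change 0.21, SE 0.15, adjusted p 0.803 by edgeR).

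Gm15920 is a copy of Ndufa12, which encodes an accessory subunit of respiratory complex I. It had 120, 6.34 and 137 normalized counts in KO and 0.906, 142 and 104 in WT, where 0.906 is 1 raw count. The low libraries, KO replicate 2 and WT replicate 1, were other ones than those of Rps3a3. Ndufa12 stayed at 15.9, 18.8 and 16.2 CPM in KO and 17.2, 17.5 and 16.6 CPM in WT. Its log2 fold change was -0.01 (SE 0.11), and that of the copy 0.09 (SE 1.17, adjusted p 0.991 by edgeR).

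Gm9522 differed from these in that its sequence was only 85.8% identical to its parent Gapdh, the glycolytic enzyme gene, and 89.5% of its windows were its own. It had 237, 531 and 30.1 normalized counts in KO and 988, 539 and 319 in WT. KO replicates 1 and 3 were the lowest libraries and WT replicates 1 and 2 the highest, but KO replicate 2 lay within the WT range. Its log2 fold change of -1.22 (SE 0.80) was not called (adjusted p 0.790 by edgeR). It was -2.21 without KO replicate 2, -0.69 without KO replicate 3 and -0.70 without WT replicate 1, and with any 1 library left out the edgeR adjusted p was at least 0.496. Gapdh was at 318, 322 and 348 CPM in KO and 325, 357 and 344 CPM in WT.

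Smaller shifts were seen in KO replicate 2 and WT replicate 2 at a few copies whose parents are on chromosomes 7 and 3. These sets were also formed after the values were seen and have no test. Of 11 reported members with a parent on chromosome 7, 3 were at least 1.5 times the median of the other 5 libraries in KO replicate 2, and the median ratio of the 11 was 1.09. Of 103 members with a parent elsewhere or none, 6 were that high in this library and 8 as far below, with a median ratio of 0.963. The 3 were Rps13-ps1, Rps15a-ps8 and Akt2-ps, at ratios of 2.01, 1.90 and 1.80. At Rps13-ps1 and Rps15a-ps8 this library stood alone, while at Akt2-ps KO replicate 1 was higher still. Rps13-ps1 had 904, 1828 and 1007 normalized counts in KO and 908, 913 and 904 in WT. Rps15a-ps8 had 333, 704 and 370 in KO and 391, 376 and 332 in WT. Both are copies of genes for proteins of the small ribosomal subunit, Rps13 (chr7:116331507-116334190) and Rps15a (chr7:118104378-118116186). Rps13-ps4, the other copy of Rps13, did not share this, with 43.7, 47.6 and 41.7 normalized counts in KO and 51.6, 29.2 and 53.5 in WT.

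In KO replicate 2 the parents Rps13 and Rps15a were at their lowest. Rps13 was at 224, 186 and 237 CPM in KO and 216, 219 and 215 CPM in WT. Added to Rps13-ps1, it was at 252, 245 and 269 CPM in KO and 245, 248 and 243 CPM in WT. Rps15a was at 247, 204 and 262 CPM in KO and 248, 235 and 248 CPM in WT. Added to Rps15a-ps8, it was at 258, 226 and 274 CPM in KO and 261, 247 and 258 CPM in WT. Unlike the Rps13 sum, this sum was still lowest in KO replicate 2. Rps15a-ps8 was 92.2% identical to its parent, with 90.5% of its windows its own, against 99.6% and 12.1% for Rps13-ps1. Neither copy was called between the groups (edgeR adjusted p 0.768 for Rps13-ps1 and 0.827 for Rps15a-ps8). Akt2-ps is a copy of a kinase gene of insulin signalling, with 83.2, 69.7 and 38.8 normalized counts in KO and 33.5, 39.6 and 37.4 in WT. KO replicates 1 and 2 stood above all other libraries, and the log2 fold change was 0.78 (SE 0.32, adjusted p 0.733 by edgeR).

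On chromosome 3, the chromosome of Mettl14, lie the parents of 7 members. In WT replicate 2, 3 of these, Rps3a3, Gm7901 and Rpl34-ps2, were at 0.0256, 0.288 and 0.528 times the median of the other 5 libraries. The median ratio of the 7 was 0.948, and Gm6166 was at 1.48. Of 107 members with a parent elsewhere or none, 4 were at least 1.5 times lower than that median in WT replicate 2 and 9 at least 1.5 times higher. Gm7901, a copy of Phgdh, the gene for the first enzyme of serine synthesis, had 65.5, 63.4 and 68.8 normalized counts in KO and 67.9, 18.9 and 65.2 in WT. Phgdh was highest in that same library, at 46.2, 41.5 and 51.7 CPM in KO and 41.4, 65.6 and 51.9 CPM in WT. Rpl34-ps2 had 60.3, 55.0 and 70.8 normalized counts in KO and 58.9, 31.1 and 56.7 in WT. Gm10086, the other copy of Rpl34, was not low there, with 42.6, 38.04 and 30.1 in KO and 29.9, 41.5 and 42.8 in WT.

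**Figure D4:**
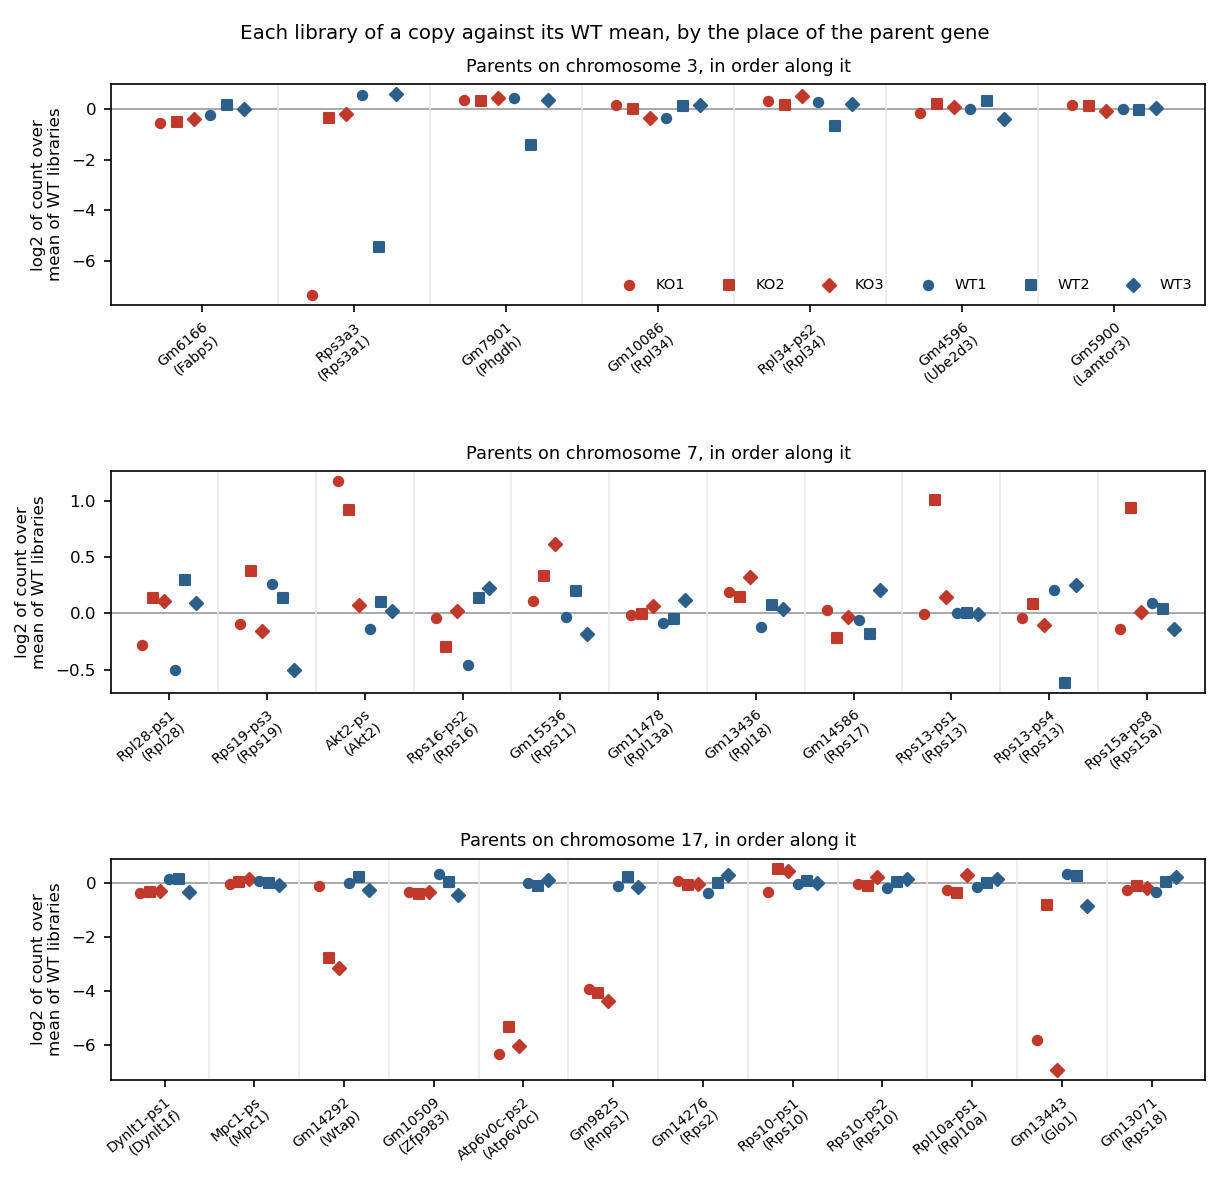
For the reported members whose parent is on chromosome 3, 7 or 17, in the order of the parents along it, points give the log2 ratio of each library's normalized count to the mean of the 3 WT libraries (KO red, WT blue, shape by replicate). On chromosome 17 the KO points of Atp6v0c-ps2 and Gm9825 lie together below the WT points, on chromosome 7 KO2 stands apart at Rps13-ps1 (1828 counts) and Rps15a-ps8 (704), and on chromosome 3 WT2 is low at Rps3a3, Gm7901 and Rpl34-ps2.

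Copies of ribosomal protein genes, the largest class with 38 members, held no called member. By mean, 22 were higher and 16 lower in KO, 0 were called in either direction by edgeR or DESeq2, and 0 had an unadjusted p under 0.05. Their median log2 fold change was 0.02, that of all tested genes -0.0040. KO libraries lay wholly above WT libraries at 2 of the 38, Gm13436 and Gm10073, and wholly below at 0. Over all tested genes, 6.59% lay wholly above and 5.97% wholly below. Gm13436, a copy of Rpl18, had 323, 313 and 354 normalized counts in KO and 260, 298 and 292 in WT. Gm11478, a copy of Rpl13a in an intron of Vmp1, was among the most even, with 247, 248 and 261 in KO and 236, 241.3 and 272 in WT. Gm9843, a copy of Fau whose M21 transcript has no window of its own, had 153, 148 and 137 in KO and 151, 158 and 148 in WT.

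Among the 21 copies of genes for translation and RNA binding, 1 was called, Gm9825, and 12 were higher and 9 lower in KO by mean. Gm12696 and Gm7964, copies of genes for hnRNP proteins, which package nuclear RNA, had the smallest ranges over libraries of all members. Gm12696, a copy of Hnrnpc, had 558, 606 and 570 normalized counts in KO and 545, 558 and 568 in WT. Gm7964, a copy of Hnrnpk, had 459, 475 and 506 in KO and 473, 499 and 528 in WT. Their log2 fold changes were 0.05 (SE 0.10) and -0.07 (SE 0.11). The 11 copies of chromatin and HMG genes had a median log2 fold change of -0.11, and 0 were called. Of these 11, 0 had an unadjusted p under 0.05 by edgeR (6.72% of all tested genes) or groups that did not overlap (12.6%). The one with the highest mean, Gm9800, is a copy of Ptma, with 559, 519 and 567 normalized counts in KO and 423, 618 and 638 in WT. Among 3 copies of chaperone genes, Gm15459, from Hspa8, had 208, 207 and 233 in KO and 115, 206 and 238 in WT. Of the 6 cytoskeletal and 5 mitochondrial copies, 0 were called by edgeR or DESeq2, and 0 had an unadjusted p under 0.05 by edgeR.

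Gm12250 had the largest positive log2 fold change of the members. RefSeq lists it as protein coding under the synonym Irgb10, an interferon-inducible GTPase, and its closest other protein-coding transcript, of Gm5431, was 68.5% identical. Normalized counts were 162, 248 and 109 in KO and 56.2, 93.3 and 58.8 in WT, without overlap. The log2 fold change was 1.31 (SE 0.35), with an unadjusted edgeR p of 0.00580 and an adjusted p of 0.568, so it was not called. An unadjusted p under 0.01 was found at 3 members in all, the others being Atp6v0c-ps2 and Gm9825, against 1.51% of all tested genes. In the authors' deposited table, from that fit named as paired, Gm12250 has a log2 fold change of 1.28 and an adjusted p of 0.0192.

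The other members whose KO libraries lay wholly above WT differed little. Gm11223, a copy of Stmn1, a gene for a regulator of microtubules, had 53.0, 56.0 and 65.9 normalized counts in KO and 38.1, 47.1 and 42.8 in WT (log2 fold change 0.44, SE 0.23, adjusted p 0.767 by edgeR). For Gm6451, a copy of Nsa2 on chromosome X, values were 35.3, 31.7 and 41.7 in KO and 29.0, 28.3 and 23.5 in WT (log2 fold change 0.42, SE 0.26). Gm11400, from the elongation factor gene Eef2, had 70.7, 70.8 and 70.8 in KO and 58.0, 58.4 and 63.1 in WT. Gm10073, from Rplp1, had 67.6, 66.6 and 81.5 in KO and 57.1, 65.0 and 60.9 in WT. Tpt1-ps3 equals its parent over its length, and both were higher in all KO libraries, the copy with 552, 536 and 564 normalized counts in KO and 496, 440 and 526 in WT. Neither Tpt1-ps3 (adjusted p 0.789 by edgeR) nor Tpt1 (0.713) was called.

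Besides the 2 called copies, Gm6166 and Gm9974 had all KO libraries below all WT libraries. Gm6166 is a copy of Fabp5, a fatty acid-binding protein gene, and had 107, 112 and 120 normalized counts in KO and 136, 178 and 160 in WT. Its log2 fold change was -0.49 (SE 0.18, adjusted p 0.713 by edgeR). Unlike the parents of Atp6v0c-ps2 and Gm9825, Fabp5 was also lower in KO, at 9.11, 9.85 and 10.9 CPM against 11.9, 12.1 and 14.0 CPM in WT (log2 fold change -0.35, SE 0.13, adjusted p 0.715 by edgeR). Gm9974 overlaps an exon of Ypel1 on the opposite strand and had 66.5, 67.6 and 49.5 normalized counts in KO and 82.4, 74.5 and 68.4 in WT (log2 fold change -0.30, SE 0.23).

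Per base of gene length, most copies were counted far below their parents. The median member reached 8.93% of its parent's CPM per kilobase. Of 114 members with a matched parent, 62 lay under 10%, 8 under 1% and 8 above the parent. Those 8 include Gm12250, Gm6611 and Gm10557, whose matches Gm5431, AF366264 and Cdh11 reached at most 0.0339, 0.151 and 0.829 CPM. Gm12250 was 68.5% identical to Gm5431, and Gm10557 was closer to a transcript of 6820431F20Rik, at 99.7%. These matches may not be the genes that the 3 members were copied from. Bambi-ps1 was also above its parent. Its parent Bambi encodes a decoy receptor of TGF-beta signalling and was at 3.38, 4.27 and 5.11 CPM in KO and 7.98, 3.60 and 3.58 CPM in WT. The copy had 670, 723 and 1007 normalized counts in KO and 1600, 813 and 978 in WT, a log2 fold change of -0.51 (SE 0.26, adjusted p 0.767 by edgeR). WT replicate 1 was highest for both. Across members, Spearman's rho between the level per kilobase of copy and parent was 0.20 (n = 114, all from the same libraries), given as a description.

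A range over libraries of 10-fold or more was found at 0 of the 11 members with no window of their own, and at 7 of the 104 with some. Of these 7, the 6 other than Gm9522 had between 9.86% and 34.9% of their windows to themselves. That range was set by the lowest and highest of the same 6, so their place in it carries no test. It held 41 of all 115 members. The 11 copies with no such window were also within 1.5-fold between the groups. Both counts are near those over all 115 members, of which 7 had a 10-fold range and 107 were within 1.5-fold.

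**Figure D5:**
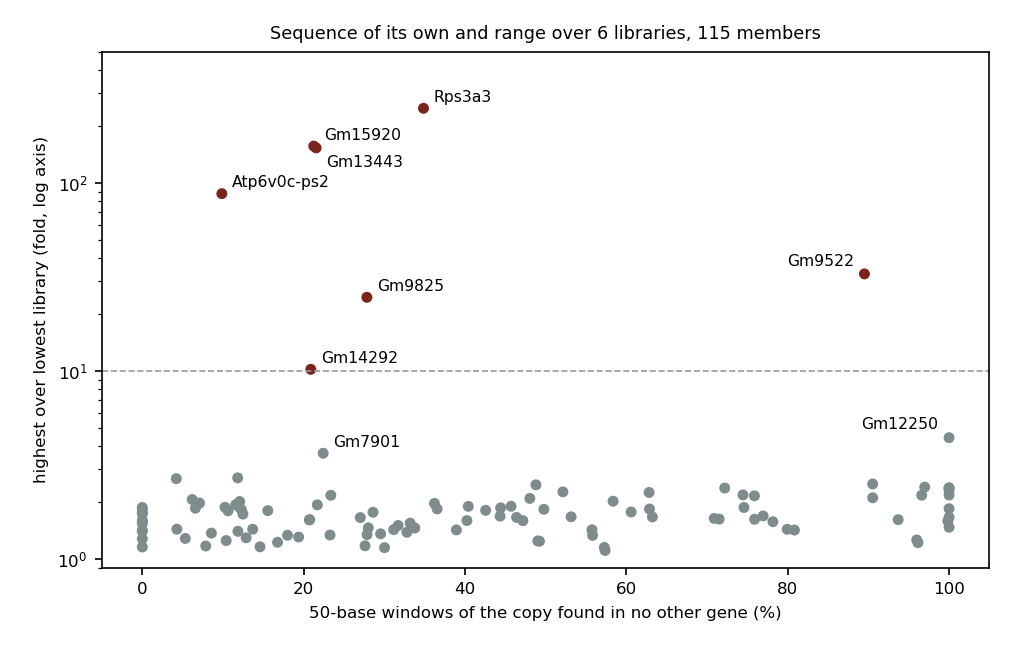
Each of 115 members is placed by the share of its 50-base windows found in no other gene (x axis, percent) and by its highest library over its lowest (y axis, log). Red points lie at or above 10-fold (dashed line). Of these 7, the 6 other than Gm9522 span 9.86% to 34.9%, a range set by the same 6 points, where 41 of the 115 members lie.

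All members together took 0.0411%, 0.0578% and 0.0534% of the gene counts in KO and 0.0678%, 0.0486% and 0.0633% in WT. The means were 0.0508% ± 0.0086 in KO and 0.0599% ± 0.01004 in WT (SD, n = 3 each), and the groups overlapped. Rps3a3 alone made up between 0.166% and 27.3% of the members' counts in a library. Without it the members took 0.0444% ± 0.0040 in KO and 0.0482% ± 0.0021 in WT. The 311 other tested rows of pseudogenes had 0 calls by edgeR or DESeq2, 21 with an unadjusted p under 0.05, and a median log2 fold change of -0.02. The 103 tested parents had 0 calls by either, 11 with an unadjusted p under 0.05, and a median of 0.02, also against 6.72% of all tested genes.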

How the data were processed

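Total RNA of the 6 samples went into libraries with an Illumina TruSeq kit, per the labels' protocols. The submitters' processing notes name Trimmomatic 0.33, STAR 2.5.2, HTSeq, DESeq2 and build mm10. How HTSeq treated strand and overlaps, and with which annotation, is not given in the sources used. The authors deposited raw counts per gene with gene lengths, per the file headers, and a normalized signal (counts over 1 factor per library), called the normalized count here. The authors' deposited log2 fold changes, standard errors, test statistic (a score) and p-values are from a DESeq2 run of theirs that the deposited table names as paired. What it paired is not given in the sources used, and its values were used only where named.

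Rows of the counting step that name no gene held 36.0% to 39.7% of counted reads and stayed out of library sizes and tests. KO and WT, n = 3 each, were compared with edgeR 4.0.16 in R 4.3.3 (TMM, filterByExpr, quasi-likelihood test on group, two-sided, Benjamini-Hochberg over 13039 genes, threshold 0.05). Standard errors are the log2 fold change over the square root of F. Counts of a copy and its parent were also added and refitted. Adding a parent's reads makes a sum follow the larger of both. DESeq2 1.42.0, other scalings, no filter, blocks and leaving out libraries were alternatives. Exact permutation of 3 against 3 libraries cannot go below 0.1, so none was run. The edgeR step was tested on simulated data.

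Members were matched to transcripts of other genes with BLAST 2.17.0 (E value 1e-10), leaving out genes that overlap the member. The parent is the best protein-coding match or the gene the symbol names. Of 43430 gene identifiers 42546 are in GENCODE M21, and 86 members have the same position in both, so a match to M21 may differ in length from what the authors counted. Replicates of a group differed by a chi-square of at least 17.5 per degree of freedom.

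Members and lists were chosen with earlier results of these data known. The rule named members by adjusted p, by an unadjusted p under 0.01, the 10 with the highest mean, up to 5 per direction without overlap between groups, the 3 nearest the threshold on each side, and their parents. Some items are not reported here. Any other named member was chosen after its values were seen.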

Additional observations from a re-analysis of the deposited data

How the results depend on the processing

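The 2 called members stayed called by edgeR under other scalings, no filter, both blocks, replicates 1 and 2 only and each library left out, where 2 to 3 members were called. Calls over all genes were 5, but 30 with no filter on low counts, 88 by DESeq2 and 4 to 23 with 1 library left out. The members' median log2 fold change, 0.03, ranged from -0.018 to 0.074 with 1 library left out, and was 0.040 without the 7 members of 10-fold range, a setting chosen after seeing the data. A minimum of 10 gave 296 members with 0.0604% of gene counts in KO and 0.0697% in WT. A minimum of 100 gave 36, with 0.0370% in KO and 0.0461% in WT. At 99% identity 54 members had a near-identical transcript.

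Same-numbered libraries did not deviate together (correlations -0.16, 0.079 and 0.20, and 2 of 6 libraries closest to their own number). With the replicate block 5 genes and 2 members were called and the members' median was 0.017. Of 55 single results under 13 alternatives, 666 values kept direction and side of the threshold, 3 passed it (Gm12250 and its sum by DESeq2, Gm13443 without KO replicate 2) and 46 changed sign, all uncalled. The cause was not tested.

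With no filter, the sign changed for Stmn1 (0.0076), Ndufa12 (0.00025) and Gm15920 plus Ndufa12 (-0.0064). With upper-quartile factors it changed for Gm17970 (-0.014), Gm15920 plus Ndufa12 (-0.022) and Gm9825 plus Rnps1 (-0.0020). On replicates 1 and 2 only it changed for Stmn1 (0.024), Gm11223 plus Stmn1 (0.026), Gm15920 (-0.19), Ndufa12 (0.0043), Gm15920 plus Ndufa12 (-0.017), Gm9800 (0.043) and Gm9825 plus Rnps1 (-0.035). Stmn1 was 0.013 with the replicate block. Gm11223 plus Stmn1 was 0.00073 with median-ratio factors, 0.016 with the replicate block, 0.00096 with the 2-level block and 0.00065 by DESeq2. With 1 library left out, ranges crossing 0 were Stmn1 -0.17 to 0.098, Gm11223 plus Stmn1 -0.17 to 0.097, Gm12276 -0.040 to 0.51, Gm15920 -0.49 to 0.77, Ndufa12 -0.083 to 0.033, Gm15920 plus Ndufa12 -0.092 to 0.093, Gm17970 -0.30 to 0.22, Gm21596 -0.040 to 0.16, Gm7901 -0.021 to 0.66, Gm9800 -0.20 to 0.071, Gm9825 plus Rnps1 -0.055 to 0.11 and Rps15a-ps8 -0.062 to 0.55. At counts of 1 to 6 per library, as for Atp6v0c-ps2 in KO, depth limits the fold change.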
